A study of Mus musculus with 21 samples.

Results

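The regions described here are chromatin-only clusters of both proteins: stretches of RNA at which SRSF3 and SRSF7 were both listed as crosslinked in the chromatin fraction and at which neither was listed in nucleoplasm or cytoplasm. Positions of all 6 deposited lists were joined on 1 chromosome and strand at gaps of up to 30 nt, and a cluster was kept when it held positions of both chromatin lists and none of the other 4. The mitochondrial genome was left out. This gave 2213 clusters of 211409 in all, and 6823 clusters held positions of both chromatin lists. Members were chosen by presence in the lists, so their absence from nucleoplasm and cytoplasm is a description and is not tested.

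The lists come from P19, an embryonal carcinoma cell line of the mouse, that expressed a GFP fusion of SRSF3 or of SRSF7. Cells were crosslinked at 254 nm with 100 mJ/cm2 and separated into chromatin, nucleoplasm and cytoplasm before iCLIP. In iCLIP the tagged protein is purified with the RNA it was crosslinked to, and the end of each cDNA marks the crosslinked nucleotide. The 21 samples form 6 groups, SRSF3-GFP chromatin, nucleoplasm and cytoplasm with 4 replicates each and SRSF7-GFP chromatin, nucleoplasm and cytoplasm with 3 each. The authors pooled the replicates of a group into 1 list, so there is no replicate spread and no p-value, and intervals given below are exact 95% intervals that cover counting error only. The labels do not say what drives the fusion genes or whether each line is 1 clone. No sample without a tagged protein was analysed here.

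SRSF3 and SRSF7 are closely related SR proteins, named for a domain rich in serine and arginine, and bind exons and introns of pre-mRNA. They act in splicing and also travel with mRNA to the cytoplasm. The chromatin fraction holds nascent and unspliced transcripts still attached to their templates, nucleoplasm holds released nuclear RNA, and cytoplasm holds exported mRNA. A binding site inside an intron is therefore usually lost from the RNA before export, whereas a site in an exon or a retained intron can stay with it.

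The lists differ in depth. SRSF3 had 1768665 cDNAs at 870234 positions in chromatin, 315510 at 109400 in nucleoplasm and 257089 at 58686 in cytoplasm. SRSF7 had 248498 at 76172, 275018 at 130679 and 367298 at 142444. A cluster that is not listed is not shown to be unbound, because only positions past the authors' false discovery rate were deposited.

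The members were short and thinly covered. Their median width was 26 nt (quartiles 17 and 45, widest 327), against 54 nt (27 and 100) for the 4610 clusters of both chromatin lists that were also listed in nucleoplasm or cytoplasm. Width runs over positions of all 6 lists, so in those clusters it includes nucleoplasm and cytoplasm positions, which members cannot hold. Such positions can also join chromatin stretches into 1 cluster and so raise its counts. The part of this in the differences of width and count was not tested. A member held a median of 10 SRSF3 cDNAs (quartiles 5 and 19, highest 215) over 7 positions, and a median of 3 SRSF7 cDNAs (2 and 5, highest 69) over 3 positions. The other clusters held 23 SRSF3 cDNAs (10 and 63) and 6 SRSF7 cDNAs (3 and 12). Of the SRSF7 positions in members, 80.5% (79.6 to 81.4) carried a single cDNA, against 55.1% (54.6 to 55.6) in the other clusters. For SRSF3 the shares were 67.8% (67.2 to 68.5) and 50.8% (50.5 to 51.1). In all, 363 members held 1 cDNA in at least 1 of the chromatin lists, and 42 held 10 or more in both.

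Together the members took 1.90% of SRSF3 chromatin cDNAs (33637 cDNAs) and 3.55% of SRSF7 chromatin cDNAs (8825 cDNAs). Of the 18457 clusters with an SRSF7 chromatin position they made up 12.0%, while 147842 clusters held an SRSF3 chromatin position. Plus strands held 1067 members and minus strands 1146. Chromosome 11 held the most (246, 11.1%), against 9.83% of the other clusters of both chromatin lists, and chromosome 1 followed (197, 8.90%). Requiring at least 3 cDNAs at each chromatin position left 166 clusters that met the rule, with 156 of the members still meeting it. With at least 2 in all 6 lists, 1198 clusters met the rule, and 827 of the members (37.4%) still met it.

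In the strongest member SRSF7 positions fell on SRSF3 positions. Members were ranked by the lower of their shares of the SRSF3 and SRSF7 chromatin lists, and the highest was 38 nt at chr11:6520373-6520410 (minus strand, mm9). It held 215 SRSF3 cDNAs over 33 positions and 61 SRSF7 cDNAs over 13 positions, and all 13 SRSF7 positions were nucleotides also listed for SRSF3. With SRSF3 listed at 33 of the 38 nt, few nucleotides were left where SRSF7 could fall without overlap. Both proteins had summits at nucleotides 15 and 23, counted from the 5′ end of the cluster, with 56 and 38 SRSF3 cDNAs and 9 and 9 SRSF7 cDNAs. SRSF7 was tallest at nucleotide 33, with 14 cDNAs, where SRSF3 had 8, so the tallest nucleotides lay 18 nt apart. The nearest nucleoplasm or cytoplasm position on that strand lay 168 nt downstream.

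Partial overlap was the other pattern. At chr10:90581067-90581179 (minus strand), 156 SRSF3 cDNAs covered 44 positions across 113 nt, while 21 SRSF7 cDNAs fell on 5 positions in the middle. The SRSF7 summit at nucleotide 49 held 11 cDNAs on a nucleotide with an SRSF3 summit of 14, and the 7 SRSF7 cDNAs at nucleotide 54 had no listed SRSF3 position. At chr17:13115710-13115740 (plus strand), 137 SRSF3 and 50 SRSF7 cDNAs covered 15 positions each, of which 9 were the same nucleotides. There SRSF3 was tallest at nucleotide 23 with 36 cDNAs and SRSF7 at nucleotide 14 with 11. At chr1:11130739-11130893 (plus strand) the tallest nucleotides of the proteins lay 108 nt apart, with 14 SRSF3 and 3 SRSF7 cDNAs, and the SRSF7 cDNAs centred 54.7 nt downstream of the SRSF3 cDNAs.

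**Figure D1:**
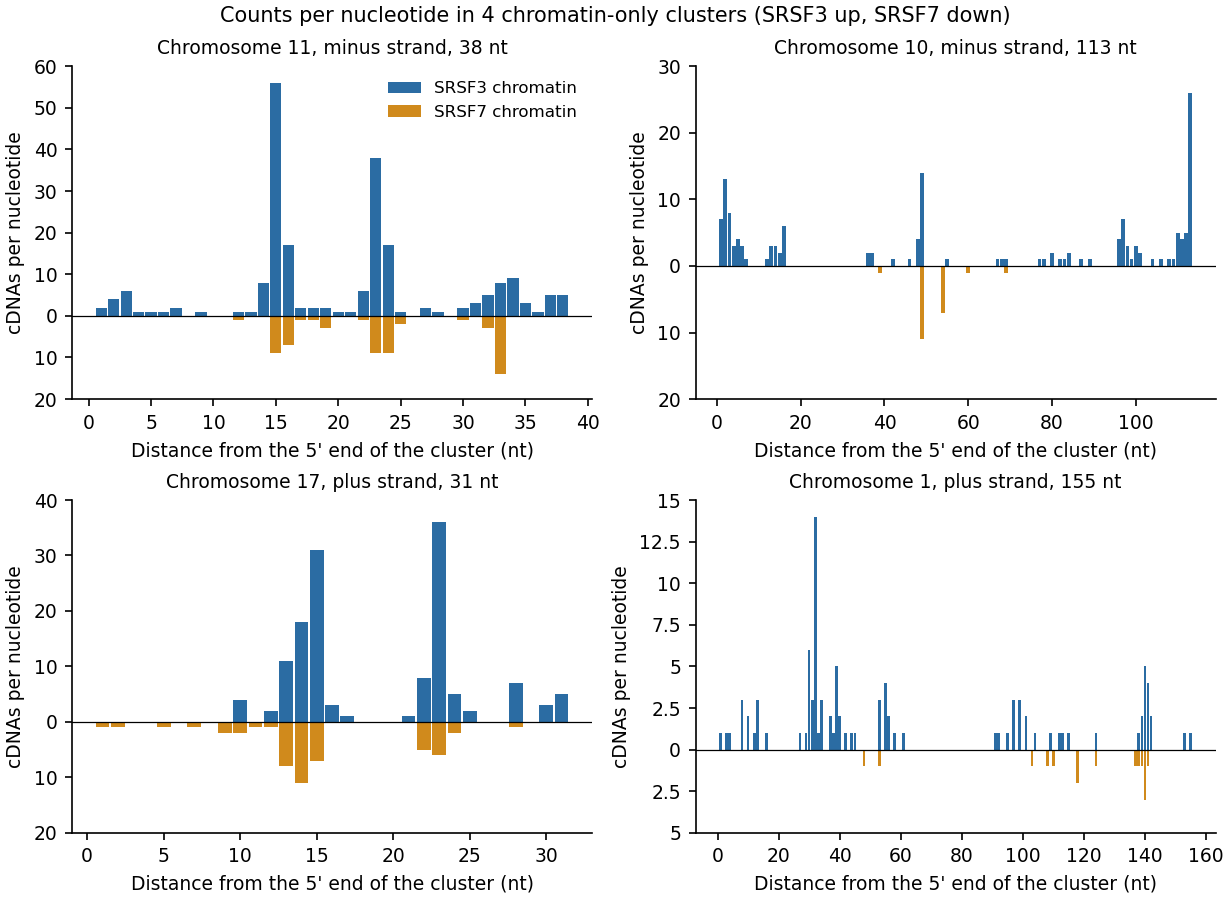
cDNAs per nucleotide (vertical axis, SRSF3 chromatin upwards and SRSF7 chromatin downwards) against the distance in nt from the 5′ end of the cluster, for the 4 members with the highest lower share of both lists. The tallest nucleotides of the proteins lie 18 nt apart in the 38 nt member of chromosome 11 and 108 nt apart in the 155 nt member of chromosome 1. In the chromosome 11 member SRSF3 is listed at 33 of the 38 nt, and all 13 SRSF7 positions are among them.

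Other strong members showed both patterns. The 18 nt at chr11:106362541-106362558 (plus strand) held 68 SRSF3 and 17 SRSF7 cDNAs, of which 46 and 12 fell on 1 nucleotide, the tallest for both. The 30 nt at chr3:95980281-95980310 (plus strand) held 81 and 10 cDNAs, with 39 and 8 on the same tallest nucleotide. That cluster held 81 of the 92 SRSF3 chromatin cDNAs and all 10 SRSF7 chromatin cDNAs of its 21.4 kb locus. Wide members were flatter. The 245 nt at chr11:98871467-98871711 (minus strand) held 203 SRSF3 cDNAs over 90 positions and 13 SRSF7 cDNAs over 11 positions, tallest at 27 and 3. At chr7:67139571-67139737 (minus strand), 104 SRSF3 and 11 SRSF7 cDNAs shared 1 nucleotide, and their tallest nucleotides lay 109 nt apart. The 10 strongest also included a pair in 1 locus of chromosome 13, chr13:28953804-28953927 (minus strand) with 72 SRSF3 and 10 SRSF7 cDNAs, and chr13:28974134-28974351 (minus strand) with 91 and 9.

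Across all members, SRSF7 positions lay close to SRSF3 positions, but less tightly than in clusters that were also listed in other fractions. Both kinds had to hold both proteins in 1 cluster joined at gaps of up to 30 nt, so some closeness is set by the joining. Some also follows from the density of SRSF3 positions, and closeness beyond that density was not tested. Of the 6892 SRSF7 positions in members, 74.7% (73.6 to 75.7) lay within 5 nt of an SRSF3 chromatin position and 37.7% (36.5 to 38.8) on the same nucleotide. In the other clusters the shares were 85.2% (84.8 to 85.5) and 62.2% (61.8 to 62.7). Members had 25.2 SRSF3 positions per 100 nt and the others 27.1. The difference was also present within classes of cluster width. Width includes nucleoplasm and cytoplasm positions in the other clusters but not in members, so the classes do not match the extent of chromatin positions. In clusters of 21 to 40 nt, 38.7% (36.8 to 40.6) of SRSF7 positions in members and 59.2% (57.8 to 60.7) in the others shared a nucleotide with SRSF3, and in clusters of 41 to 80 nt 30.5% (28.1 to 32.9) and 63.1% (62.2 to 64.1). SRSF3 positions per 100 nt of this width were 27.1 and 32.1 in the narrower width class and 21.4 and 27.5 in the wider, so density differed in the same direction. Height differed too, with 1.63 SRSF3 and 1.28 SRSF7 cDNAs per position in members and 5.79 and 4.95 in the others. The parts of density and height in the difference were not tested. At least 1 nucleotide was listed for both proteins in 1306 members (59.0%, 56.9 to 61.1) and in 3580 of the other clusters (77.7%, 76.4 to 78.9).

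**Figure D2:**
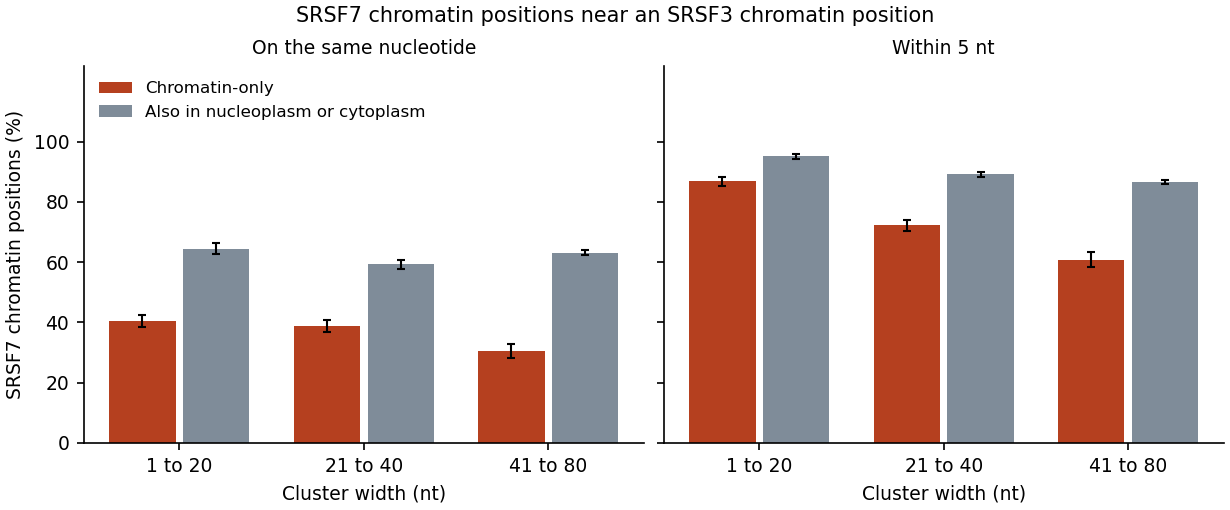
Percentage of SRSF7 chromatin positions (vertical axis) that share a nucleotide with an SRSF3 chromatin position (left) or lie within 5 nt of one (right), by cluster width in nt, for chromatin-only clusters and for clusters also listed in nucleoplasm or cytoplasm. Bars start at 0 and error bars are exact 95% Clopper-Pearson intervals. Chromatin-only clusters are lower in each of the 3 width classes, with 30.5% against 63.1% on the same nucleotide at 41 to 80 nt.

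SRSF7 lay downstream and upstream of SRSF3 about equally often. The centre of the SRSF7 cDNAs lay downstream of that of the SRSF3 cDNAs in 1084 members and upstream in 1098, with a median offset of 0.0 nt (quartiles -7.40 and 7.50). In members of 21 to 40 nt the median distance between the centres was 8.53 nt, against 4.04 nt in other clusters of that width. Of members with 10 or more cDNAs in both lists, 13 of 42 had the same tallest nucleotide for both proteins (exact interval 17.6 to 47.1%), against 567 of 1267 other clusters (42.0 to 47.5%). These intervals overlap. The Spearman correlation of SRSF3 and SRSF7 counts was 0.23 over the 2213 members and 0.49 over the other clusters. Both are correlations across clusters, which share the 2 lists and their depths and are not replicates. Counts of members spanned a narrower range, with SRSF7 quartiles of 2 and 5 against 3 and 12. SRSF3 quartiles were 5 and 19 against 10 and 63. A narrow range with many ties can itself lower a correlation, so the 2 values do not show a looser relation in members. The part of range in the difference was not tested.

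Whether a cluster of both chromatin lists was chromatin-only went with its height. The 2213 members were 32.4% of the 6823 clusters of both lists (31.3 to 33.6). By SRSF7 count the share was 53.6% (49.2 to 57.9) at 1 cDNA, 42.0% (39.8 to 44.2) at 3 to 4, 34.3% (32.2 to 36.4) at 5 to 9, 7.48% (5.56 to 9.79) at 10 to 19 and 0.674% (0.139 to 1.96) at 50 or more. By SRSF3 count it was 58.1% (50.2 to 65.7) at 1 cDNA, 40.7% (38.3 to 43.2) at 10 to 19 and 7.02% (5.78 to 8.44) at 50 or more. Among clusters with 10 or more cDNAs in both lists, 42 of 1309 were chromatin-only (3.21%, 2.32 to 4.31). Only 3 members held 50 or more SRSF7 cDNAs, at 69, 61 and 50. These values belong to the contrast that chose the members and are given as a description.

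**Figure D3:**
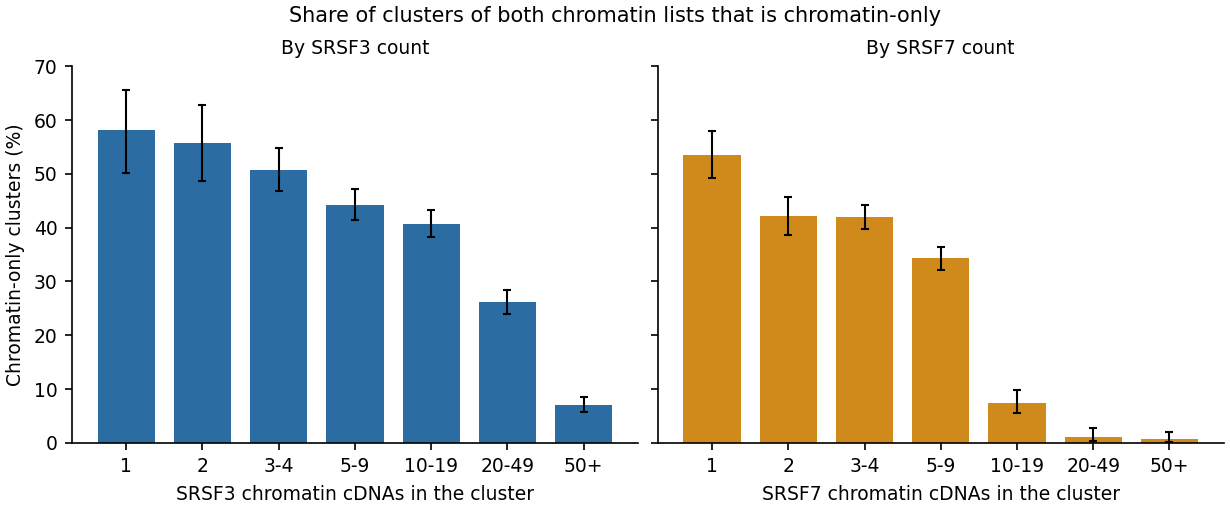
Percentage of clusters of both chromatin lists that is chromatin-only (vertical axis, from 0), by the number of SRSF3 (left) and SRSF7 (right) chromatin cDNAs in the cluster, with exact 95% Clopper-Pearson intervals. The share is 53.6% at 1 SRSF7 cDNA and 0.674% at 50 or more.

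The depth of the other lists limits what absence can show. If a member held the same share of a nucleoplasm or cytoplasm list as of the chromatin list of that protein, the median member would hold 1.78 SRSF3 cDNAs in nucleoplasm and 1.45 in cytoplasm, and 3.32 SRSF7 cDNAs in nucleoplasm and 4.43 in cytoplasm. At least 5 cDNAs would fall on 273, 205, 739 and 1093 members in these lists, and at least 10 on 73, 43, 55 and 244. The part of depth in the members' absence was not tested. Clusters of both chromatin lists outside the members were listed most often in all 4 other lists (1294) or in SRSF7 nucleoplasm alone (708), then in both SRSF7 lists (550), in all but SRSF3 cytoplasm (430) and in both nucleoplasm lists (358). Around the 30 nt threshold, the 63 members with another fraction's position at 31 to 40 nt had medians of 11 SRSF3 and 3 SRSF7 cDNAs, and the 52 clusters excluded by a nearest position at 21 to 30 nt had the same medians.

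Joint listing was uncommon among chromatin-only clusters. In addition to the 2213 members, 127556 chromatin-only clusters were listed for SRSF3 alone and 8903 for SRSF7 alone. SRSF3 was thus present in 19.9% of chromatin-only clusters with SRSF7 (19.2 to 20.7), and in 62.8% of SRSF7 chromatin clusters that were also listed in other fractions (61.7 to 63.9). SRSF7 was present in 1.71% of chromatin-only clusters with SRSF3 (1.64 to 1.78) and in 25.5% of SRSF3 chromatin clusters also listed in other fractions (24.9 to 26.1). The clusters set against each other were not matched for height or width. SRSF3-alone chromatin-only clusters had medians of 13 nt and 5 SRSF3 cDNAs, against 54 nt and 23 for clusters of both lists also listed elsewhere. The width of the latter includes their nucleoplasm and cytoplasm positions. The parts of height and width in these differences were not tested. The share with SRSF7 was 0.558% (0.453 to 0.680) at 1 SRSF3 cDNA and 22.8% (19.1 to 26.9) at 50 or more. At a width of 11 to 20 nt it was 0.718% (0.620 to 0.828) at 5 to 9 SRSF3 cDNAs and 8.79% (5.96 to 12.4) at 20 or more, but at 41 to 80 nt the 2 values were 7.65% (6.24 to 9.26) and 7.04% (6.04 to 8.16). At 1 to 4 SRSF3 cDNAs the share was higher than at 5 to 9 in both widths. It was 1.54% (1.33 to 1.77) at 11 to 20 nt and 41.7% (30.2 to 53.9, 30 of 72) at 41 to 80 nt. Width includes SRSF7 positions, which can themselves widen a cluster, and the part of this was not tested.

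SRSF3 and SRSF7 chromatin shares were then compared in each cluster. The share is the cDNAs in the cluster over all cDNAs of the list, clusters needed at least 20 cDNAs in both chromatin lists together, and a cluster was called when the whole exact conditional binomial interval of the ratio lay beyond 2-fold. Of 707 members compared, 5 were called higher in SRSF3, where 2.62% of all 3776 clusters compared were so called, and 14 were called higher in SRSF7, where 15.3% of all were. The members' shares were 0.707% (0.230 to 1.64) and 1.98% (1.09 to 3.30), below the background of all heights together in both directions. At 20 to 29 and at 30 to 49 cDNAs, however, no cluster of either kind could be called higher in SRSF3. Each cluster compared holds at least 1 SRSF7 cDNA, and the SRSF3 list holds 1768665 cDNAs against 248498. At such counts the interval therefore cannot lie wholly beyond 2-fold towards SRSF3. The pooled SRSF3-higher share therefore depends on height and does not show that such clusters were rarer among members. Members had a median log2 ratio of SRSF3 over SRSF7 of -0.25 (quartiles -1.02 and 0.58), and all clusters compared had -0.39 (-1.32 and 0.58). SRSF7-higher clusters remained rarer among members at like height, with 10 of 367 members (2.72%) and 114 of 702 others (16.2%) at 20 to 29 cDNAs, and 2 of 203 (0.985%) and 100 of 730 (13.7%) at 30 to 49. The share of clusters that was chromatin-only was lower at high SRSF7 counts, and the part of the rule in this difference was not tested. All 5 SRSF3-higher members held at least 100 cDNAs, where 5 of 20 members and 87 of 955 others (9.11%) were so called. Joining clusters at 10 nt gave 1 SRSF3-higher member and at 100 nt 16, against 1.76% and 4.16% of all clusters compared. Counting positions instead gave 0 SRSF3-higher and 58 SRSF7-higher members, against 0.0530% and 27.0% of all clusters compared.

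**Figure D4:**
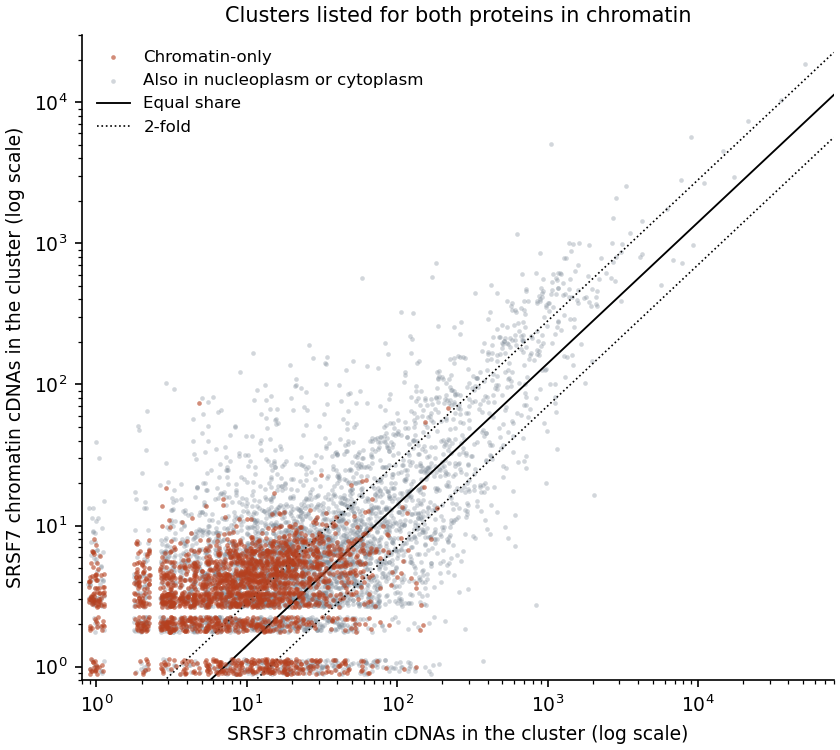
SRSF7 against SRSF3 chromatin cDNAs per cluster, both on log scales with slight random displacement of points to separate ties, for chromatin-only clusters and for clusters also listed in nucleoplasm or cytoplasm. The solid line marks equal shares of the 2 lists and dotted lines 2-fold. Chromatin-only clusters lie at the low end, with no more than 215 SRSF3 and 69 SRSF7 cDNAs.

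The SRSF3-higher members were wide and rested on very few SRSF7 cDNAs. At chr13:28971555-28971881 (minus strand), 327 nt held 121 SRSF3 cDNAs over 83 positions and 1 SRSF7 cDNA, a log2 ratio of 4.09 (1.58 to 9.40). In the same locus, 234 nt at chr13:28967474-28967707 held 144 and 2 cDNAs, at 3.34 (1.46 to 6.40). At chrX:148319344-148319567 (plus strand), 224 nt held 127 and 2, at 3.16 (1.27 to 6.22). The 78 nt at chr17:29178212-29178289 (plus strand) held 160 and 3, at 2.91 (1.33 to 5.20), with a single SRSF3 nucleotide of 45 cDNAs. The remaining one, 212 nt of minus-strand chromosome 18 RNA, held 108 and 1, at 3.92 (1.41 to 9.24). With positions counted, all 5 lost the call, and the members of chromosomes X and 17 also lost it when the mitochondrial genome and the 10 highest loci were left out of the totals.

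The SRSF7-higher members included the tallest SRSF7 member of all. At chr5:132820711-132820814 (minus strand), 104 nt held 5 SRSF3 cDNAs over 5 positions and 69 SRSF7 cDNAs over 35 positions, a log2 ratio of -6.62 (-8.29 to -5.33). No nucleoplasm or cytoplasm position was listed within 33213 nt of it on its strand, although its 208 kb locus held 121 cDNAs of those fractions elsewhere. At an equal share, a cluster with 69 SRSF7 chromatin cDNAs would hold 76.4 in SRSF7 nucleoplasm and 102 in SRSF7 cytoplasm. A single plus-strand nucleotide, chr17 position 28828114, held 3 SRSF3 and 19 SRSF7 cDNAs, at -5.49 (-7.89 to -3.73), and lost the call when positions were counted. At chr7:30231503-30231548 (minus strand), 46 nt held 7 and 15, at -3.93 (-5.47 to -2.55), in a locus with nothing listed in the other fractions. The 5 nt at chr2:38205391-38205395 (plus strand) held 8 and 12, at -3.42 (-4.91 to -2.00), with no other listed position within 10000 nt, and also lost the call with positions. A member of 27 nt of minus-strand chromosome 18 RNA had 7 and 15 as well, at -3.93 (-5.47 to -2.55).

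Most members lay near positions that were listed in the other fractions. The nearest nucleoplasm or cytoplasm position on the same strand was a median of 808 nt away (quartiles 200 and 4355). It lay at 31 to 100 nt for 314 members, then at up to 1000 nt for 874, at up to 10000 nt for 655 and beyond that for 370. Chromatin-only clusters of 1 protein were farther away, with medians of 3250 nt for SRSF3 alone and 4520 nt for SRSF7 alone. More than 1000 nt separated 46.3% of members (44.2 to 48.4), 70.8% of SRSF3-alone clusters (70.5 to 71.0) and 68.1% of SRSF7-alone clusters (67.1 to 69.1) from any such position. These kinds were not matched for height or width, with median widths of 26, 13 and 5 nt in that order. The parts of height and width in the distances were not tested. The nearest position was upstream of 1171 members and downstream of 1042.

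SRSF7 nucleoplasm came nearest to the members. A position of that list lay within 1000 nt of 911 members (41.2%, 39.1 to 43.2), of SRSF7 cytoplasm for 556 (25.1%, 23.3 to 27.0), of SRSF3 nucleoplasm for 540 (24.4%, 22.6 to 26.2) and of SRSF3 cytoplasm for 167 (7.55%, 6.48 to 8.73). These lists hold 130679, 142444, 109400 and 58686 positions in the same order, and the part of list length was not tested. On the opposite strand, only 2 members had a nucleoplasm or cytoplasm position within 30 nt.

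Listed positions were also grouped into loci, with gaps of at most 10000 nt within a strand. This approximates transcription units but can merge neighbours or split long ones. The members lay in 1132 loci with a median span, taken over members, of 49.8 kb, against 16.1 kb for clusters of both chromatin lists also listed in other fractions. For chromatin-only clusters of 1 protein the median span was 44.6 kb for SRSF3 alone, near that of the members, and 12.2 kb for SRSF7 alone. The locus held nucleoplasm or cytoplasm cDNAs elsewhere for 2006 members (90.6%, 89.4 to 91.8), and the shares were 86.3% for SRSF3-alone and 66.7% for SRSF7-alone chromatin-only clusters. Height and width were not matched here either. With loci joined at 1000 nt the share of members was 69.4% (67.4 to 71.3). The 207 members in loci without other fractions lay in 204 loci of short median span, 0.0205 kb. In 710 of the 1132 loci every cluster of both chromatin lists was chromatin-only, and these held 871 members.

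The members farthest from another fraction held few cDNAs. The greatest distance was 1244423 nt, for 4 nt at chr8:39822388-39822391 (minus strand) with 6 SRSF3 and 2 SRSF7 cDNAs. It was followed by 18 nt at chr11:9029498-9029515 (plus strand) with 8 and 2 cDNAs, at 802432 nt, and 5 nt at chr4:50928990-50928994 (minus strand) with 3 and 3, at 714914 nt. The members of chromosomes 8 and 4 had no other listed position within 10000 nt, while the chromosome 11 member held 8 of the 25 SRSF3 chromatin cDNAs of a 13.2 kb locus. Background at such small groups was not tested.

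Some long loci carried many members. The 8 loci with most held 276 of the 2213 (12.5%, 11.1 to 13.9), 24 loci held 10 or more each, and 829 held 1. First came chr1:11056686-11244752 (plus strand), with 84 members and 66 clusters of both chromatin lists also listed in other fractions. SRSF3 had 21236 cDNAs there in chromatin, 239 in nucleoplasm and 12 in cytoplasm, and SRSF7 had 1456, 843 and 349. Its members held 1 to 134 SRSF3 cDNAs (median 22) and 1 to 15 SRSF7 cDNAs (median 5), and together took 13.2% of the SRSF3 and 27.3% of the SRSF7 chromatin cDNAs of the locus. Next came chr13:28679218-28989636 (minus strand), which had 53 members and 29 other such clusters. SRSF3 had 21145, 274 and 59 cDNAs in chromatin, nucleoplasm and cytoplasm there, and SRSF7 885, 424 and 98. Members took 9.92% of its SRSF3 and 26.2% of its SRSF7 chromatin cDNAs.

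The densest of the 8 loci was chr10:14924104-14983025 (minus strand), with 31 members in 58.9 kb. SRSF7 had 145 cDNAs there in chromatin, 83 in nucleoplasm and none listed in cytoplasm, and the members took 51.7% of those in chromatin. Of its 2382 SRSF3 chromatin cDNAs they took 10.6%. At chr10:118892309-119219766 (plus strand), 23 members stood beside 3 other clusters of both lists, and neither protein was listed in cytoplasm. SRSF3 had 4413 cDNAs in chromatin and 18 in nucleoplasm, and SRSF7 141 and 38, with 58.9% of the SRSF7 chromatin cDNAs in members. The locus chr17:63038067-63232087 (minus strand) had 30 members and 10 other clusters, and chr8:64040635-64238779 (minus strand) had 16 and 3. At chr17:84602301-84846192 (minus strand) and chrX:148237819-148369898 (plus strand) members were the minority, with 20 and 28 clusters and with 19 and 47. The X locus alone among the 8 held a larger count of SRSF7 cDNAs in cytoplasm (680) than in chromatin (531). In all 8 the members took a larger part of the locus' SRSF7 than of its SRSF3 chromatin cDNAs. Each member had to hold an SRSF7 position, and the SRSF7 chromatin list has 76172 positions against 870234 for SRSF3. This order is therefore a description, and the part of the rule in it was not tested.

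**Figure D5:**
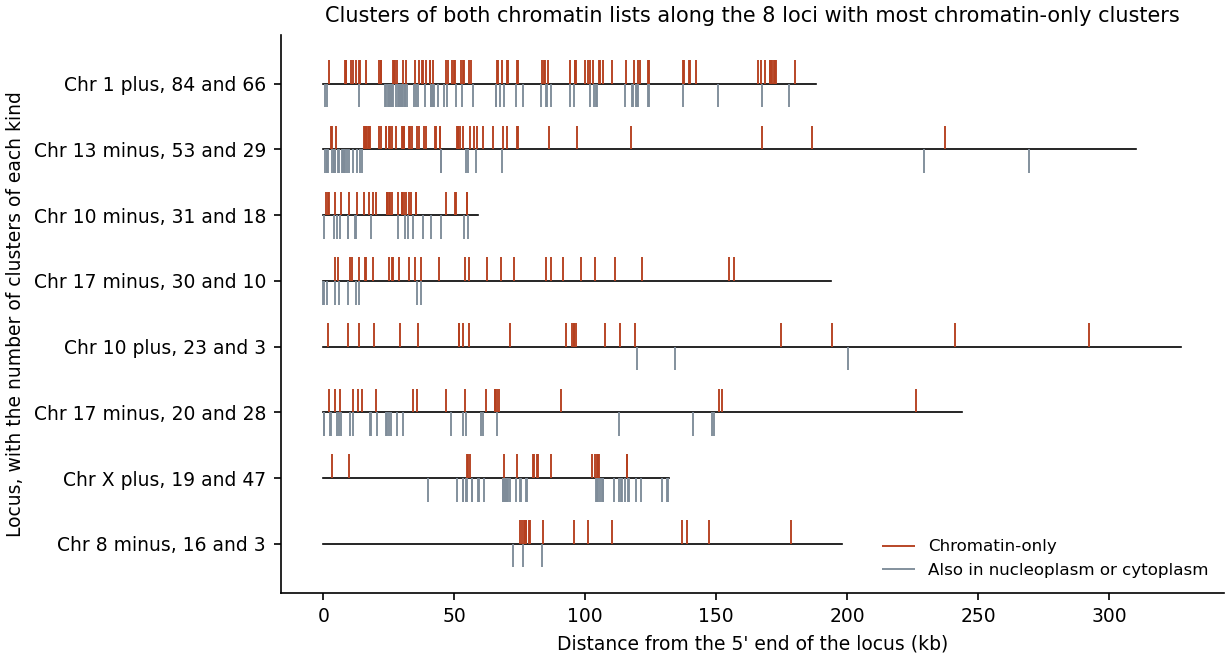
Places of clusters of both chromatin lists along the 8 loci with most chromatin-only clusters, as distance in kb from the 5′ end of the locus. Ticks above each line are chromatin-only clusters and ticks below are clusters also listed in nucleoplasm or cytoplasm, with the number of each beside the chromosome and strand. The kinds lie among each other on chromosome 1, while on chromosome 13 clusters also listed elsewhere gather near the 5′ end.

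Within loci the 2 kinds were not clearly separated. In 416 loci of at least 1000 nt that held both kinds, 64.1% of 1336 members (61.4 to 66.6) lay nearer the 5′ than the 3′ end of the locus, against 60.5% of 1914 clusters also listed in other fractions (58.3 to 62.7). The median place was 0.36 of the span from the 5′ end for members and 0.40 for the others. Taken locus by locus, the members' median was nearer the 5′ end in 189 loci and nearer the 3′ end in 227. With loci joined at 1000 nt the order turned, to 53.4% of members (50.1 to 56.7) and 62.7% of the others (60.2 to 65.3). Neighbouring members of 1 locus lay a median of 3044 nt apart (quartiles 898 and 10341, 1081 pairs).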

How the data were processed

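The members and the comparisons were chosen with earlier results of these data known. Each deposited list holds, per the file headers, positions that passed a false discovery rate of 0.05, from 100 permutations and a neighbourhood of 15 nt, on build mm9. The deposited score at a position is a signed whole number, read as the cDNA count with the sign as strand. The authors pooled 4 SRSF3 or 3 SRSF7 replicates per list. SRSF7 track names carry a term for regions taken as one, while their descriptions say separately. Aligner and peak caller were not named by the sources used here, and no scaling to depth is stated.

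Coordinates are 1-based. Clusters used gaps of up to 30 nt, loci 10000 nt. The members named are 10 chosen for the highest lower chromatin share, the 5 highest and 5 lowest ratios among those called, the 3 farthest from another fraction and the 8 loci with most members. Alternatives were other gaps, minimums, totals, thinned lists and ignoring strand. Shares carry exact Clopper-Pearson intervals. In simulated counts for the comparison of SRSF3 with SRSF7, where 4826 clusters were compared, 86.2% of clusters 8-fold higher in SRSF3 and 96.0% of those 8-fold higher in SRSF7 were called, and 0 of 4633 unchanged ones. These rates are not split by height, so they do not give the recovery at the lower counts of the members. No annotation or genome of mm9 was used here, so clusters carry no gene names and no sequence. Computation used scipy 1.17.1, pandas 2.3.3 and numpy 2.4.6 under Python 3.11.15, with matplotlib 3.10.9 for plots.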

Additional observations from a re-analysis of the deposited data

Results flagged for a closer look

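The rule left out the mitochondrial genome, which carried signal in both chromatin lists. There 13 clusters held positions of both chromatin lists, and each of the 13 was also listed in nucleoplasm or cytoplasm.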

How the results depend on the processing

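The number of members was between 1602 and 2288 with gaps of 10 and 100 nt, thinned lists, strand ignored or the 8 loci with most members left out (the last chosen after seeing the data). It was 1198 with positions of at least 2 cDNAs in all lists and 166 with at least 3 in the chromatin lists, of which 827 and 156 members were also among the 2213. The share of clusters of both chromatin lists that was chromatin-only was 10.2% with that last minimum, 29.1% after thinning to 248498 cDNAs and 30.5% without the 8 loci. Of 707 members compared, 3 were higher in SRSF3 and 23 in SRSF7 when totals left out mitochondrial cDNAs and the 10 highest loci. Of all 3776 clusters compared, 1.27% and 19.6% were so called in that setting. With positions counted the members numbered 0 and 58, against 0.0530% and 27.0% of all. SRSF3-higher members numbered 1 of 670 with a gap of 10 nt and 16 of 728 with 100 nt, against 1.76% and 4.16% of all clusters compared. SRSF7-higher ones numbered 2 of 137 with at least 50 cDNAs, against 19.8% of all 1774 compared there. The share of SRSF7 positions near SRSF3 was 37.7% on the same nucleotide, 82.7% within 10 nt and 57.8% after thinning, where the clusters also in other fractions had 73.9%. Loci with other fractions held 69.4% of members when joined at 1000 nt, 88.3% with at least 2 cDNAs per position and 89.3% without the 8 loci. Members nearer the 5′ end were 53.4% with loci joined at 1000 nt. The causes of these changes were not tested. The 10 named members that were called gave 26 values under other settings, of which 17 kept the call and 9 lost it. The 10 named members that were not called gave 30, of which 27 stayed without a call and 3 gained one. None reversed. No paired analysis was possible because replicates were pooled before deposit, which also prevents leaving one out.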
